A study of Mus musculus with 2 samples.

Results

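The SR and hnRNP splicing regulators are the proteins that choose which splice sites a cell uses. They were taken as every protein-coding gene of both gene tables whose symbol begins with Srsf or Hnrnp, together with Tra2a, Tra2b, Ptbp1, Ptbp2, Ptbp3, U2af1, U2af2, Sf3b1 and Zrsr2. This gave 40 members of 21474 protein-coding genes: 11 SR proteins, 2 SR-related Tra2 genes, 20 hnRNP genes, 3 polypyrimidine tract-binding (PTB) genes and 4 genes whose products recognise the branch point and the 3′ splice site. The rule rests on gene names and uses no measured value, but it was set with earlier results of these data known.

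The study measured total RNA-seq in 2 libraries of 1 group from male adult C57BL/6J mice of 5 to 6 weeks. The labels name the cells as primary megakaryocyte progenitors (CFU-Meg). No allele, treatment or second condition is named in the labels, so the comparisons are among genes and between the 2 libraries. Each library was made from 1 ng of RNA, and both carry the same donor identifier with separate biosample identifiers. The spread between them may therefore be technical, and how the cells were sorted is described in protocols not used here.

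SR proteins bind short exonic motifs through RNA recognition motifs and recruit the spliceosome through domains rich in arginine and serine. The hnRNPs coat nascent RNA and often block the use of nearby splice sites, and the PTB proteins bind pyrimidine-rich intronic sequence. Many of these genes control their own level by splicing in a poison exon, an exon that brings a premature stop codon into frame and sends the transcript to nonsense-mediated decay (NMD), or by keeping an intron. In blood cells, the genes for U2AF1, SF3B1, SRSF2 and ZRSR2 are best known as targets of mutation in myeloid disease.

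The exons that carry such stops show what the transcript tables could count. In 11 NMD transcripts of 8 members with a share above 0, the annotated stop codon lay inside an exon that the leading complete coding transcript lacks. For 5 of these genes the stretch from the exon's 5′ end to its stop is shown 5′ to 3′, with the premature stop codon in capitals, as the clearest link between the shares described further on and the sequence of the gene. It was read from the GENCODE M21 transcripts on GRCm38.
Srsf3: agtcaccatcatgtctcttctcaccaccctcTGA
Srsf6: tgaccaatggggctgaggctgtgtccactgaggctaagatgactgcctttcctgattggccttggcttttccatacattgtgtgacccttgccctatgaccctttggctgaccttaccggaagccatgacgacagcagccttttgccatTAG
Tra2b: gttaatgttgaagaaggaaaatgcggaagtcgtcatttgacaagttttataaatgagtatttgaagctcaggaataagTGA
Sf3b1: gcttctattctgctgctTGA
Hnrnpll: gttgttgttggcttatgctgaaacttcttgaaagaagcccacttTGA

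The Srsf3 stretch covers chr17:29039454-29039487 on the plus strand and belongs to a 456-nt exon in intron 3. Its NMD transcript encodes 124 residues, against 164 for the leading coding transcript. The Srsf6 stretch covers chr2:162932815-162932966 on the plus strand, in a 268-nt exon of intron 2, and its NMD transcript encodes 135 residues against 339. The Tra2b stretch covers chr16:22259181-22259261 on the minus strand, in a 276-nt exon of intron 1, and its NMD transcript encodes 38 residues against 288. The lengths of the NMD products include the residues read from the extra exon up to its stop. Those of Sf3b1 (chr1:55014905-55014924, minus strand) and Hnrnpll (chr17:80044976-80045022, minus strand) belong to exons of 56 and 83 nt. The 5 stops are TGA in Srsf3, Tra2b, Sf3b1 and Hnrnpll and TAG in Srsf6.

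The regulators as a group were highly expressed in both libraries. Their median level was 103 TPM (transcripts per 1000000), with 107 in replicate 1 and 102 in replicate 2, against 0.585 for all protein-coding genes and 24.8 for those with a mean of 10 TPM or more. In both libraries, 39 members had 1 TPM or more, where 46.2% of protein-coding genes did, and 38 had 10 TPM or more, where 24.1% did. A level of 100 TPM in both was reached by 19 members and by 2.58% of protein-coding genes. Members made up 0.186% of protein-coding genes and held 1.11% ± 0.0408 (SD, n = 2) of their TPM. The 5 highest members carried 35.8% ± 0.442 of the members' sum.

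**Figure D1:**
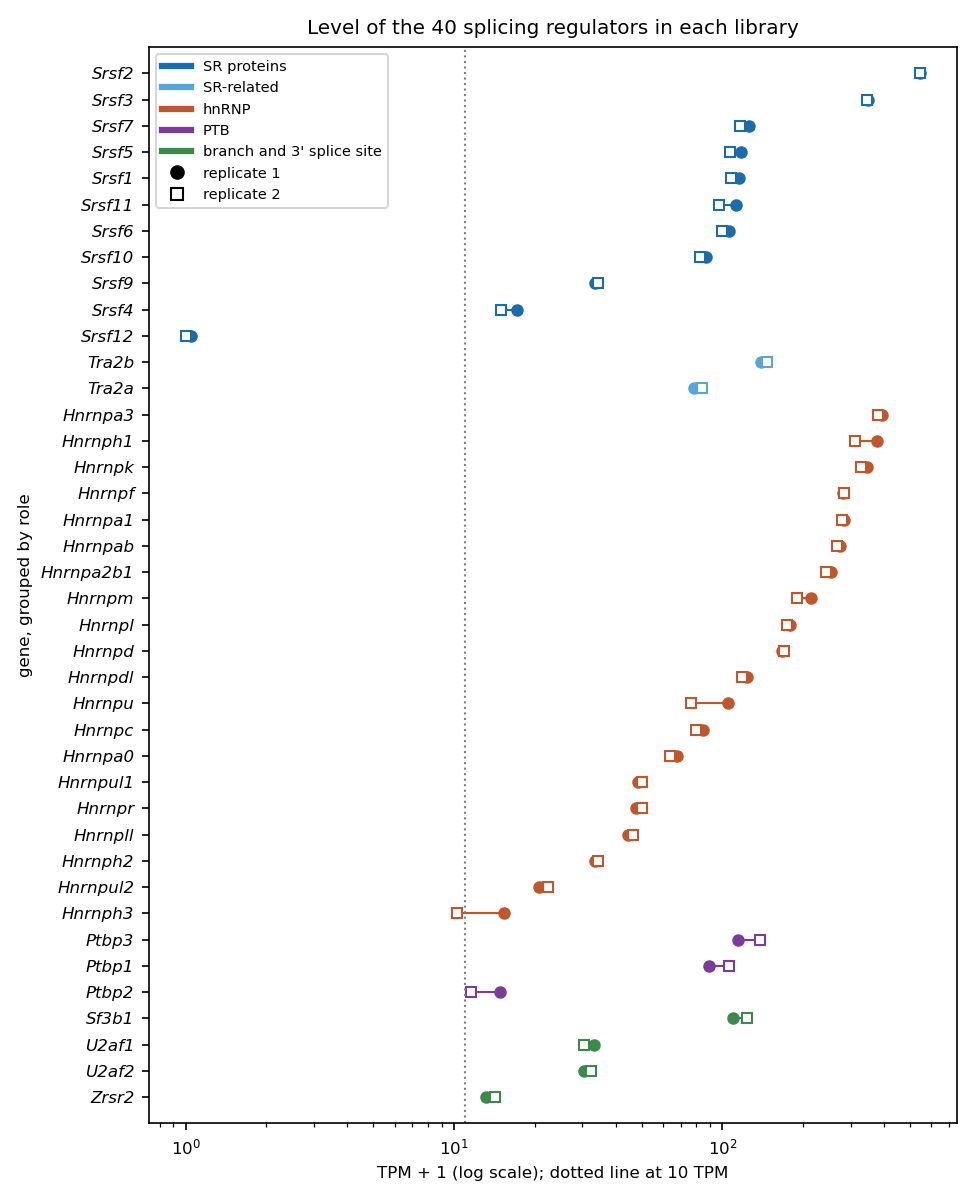
TPM + 1 (log axis) of the 40 splicing regulators in replicate 1 (filled circles) and replicate 2 (open squares), grouped and coloured by role, with a dotted line at 10 TPM. Srsf12 sits at the left edge, Srsf2 is the highest at 545 and 544 TPM, and Hnrnph3 crosses the line between the libraries.

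Among the SR proteins, Srsf2 (ENSMUSG00000034120.14, chr11:116849901-116853094) was the highest member of all, at 545 TPM in replicate 1 and 544 in replicate 2. Its product is a classical SR protein that activates exons. Srsf3 (ENSMUSG00000071172.8, chr17:29032628-29043373), the smallest SR protein, followed at 347 and 345 TPM. Both genes lay far above the next SR protein, Srsf7, at 125 and 115 TPM. Srsf5, Srsf1, Srsf11 and Srsf6 formed a block between 95.9 and 116 TPM in which each gene's library values overlapped with those of the next. Srsf10 lay below it at 85.6 and 81.5 TPM, Srsf9 stood at 32.6 and 33.4 TPM and Srsf4 at 16.2 and 14.0. Srsf12 (chr4:33208991-33233340) was the only member under 1 TPM, with 8 reads (0.05 TPM) in replicate 1 and 0 reads in replicate 2. In replicate 2, 3 reads of this gene would be 0.0298 TPM.

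The SR-related genes encode proteins with arginine- and serine-rich domains on both sides of a single RNA-binding motif. Tra2b, at 138 and 146 TPM, lay above Tra2a, at 77.2 and 82.7 TPM, in both libraries.

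The hnRNP genes had the highest median of the 5 roles, 144 TPM, against 104 for the SR proteins, 111 for the Tra2 genes, 96.6 for the PTB genes and 30.7 for the branch point and 3′ splice site genes. Hnrnpa3, a member of the A/B family, led with 391 and 380 TPM. Hnrnph1 at 377 and 312 TPM and Hnrnpk at 345 and 328 TPM followed, and their library ranges overlapped, as did those of Srsf3 and Hnrnph1. Hnrnpf, Hnrnpa1, Hnrnpab and Hnrnpa2b1 lay between 243 and 284 TPM. Hnrnpm, Hnrnpl and Hnrnpd lay between 165 and 213 TPM, and Hnrnpdl, Hnrnpu, Hnrnpc and Hnrnpa0 between 62.6 and 123. The lower end held Hnrnpul1, Hnrnpr, Hnrnpll, Hnrnph2 and Hnrnpul2 (19.7 to 49.1 TPM) and, lowest, Hnrnph3 with 14.3 and 9.29 TPM.

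The PTB genes did not share 1 level. Ptbp3, which is known from blood cells, had 113 and 137 TPM, and Ptbp1, the widely expressed family member, had 88.2 and 105. Ptbp2, which is best known from neurons and testis, had 13.8 and 10.6 TPM, below both others in each library.

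The branch point and 3′ splice site genes were led by Sf3b1 with 109 and 122 TPM, the subunit of the U2 particle that holds the branch point. U2af1 and U2af2, the small and large subunits of the factor that reads the 3′ splice site, lay at 32.2 and 29.6 TPM and at 29.6 and 31.5 TPM. Their library values overlapped. Zrsr2, which serves introns of the minor spliceosome, had 12.1 and 13.2 TPM. In the order of all members, 20 of 39 neighbouring pairs had overlapping library values, so the order is firm only across the larger steps.

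The wider splicing machinery was measured beside them through lists of genes chosen by function. The 7 kinases that phosphorylate SR proteins had a median of 21.7 TPM, and Clk1 stood out from the rest with 178 TPM in each library. The 25 Sm and snRNP proteins, the core of the spliceosome, had a median of 49.2 TPM, and 23 of 25 reached 10 TPM in both libraries. The 10 NMD factors had a median of 10.6 TPM, and 5 of them reached 10 TPM in both libraries. Of 24 other splicing regulators, 16 reached 10 TPM in both, led by Mbnl1 at 252 and 225 TPM, and 5 (Rbfox3, Nova1, Nova2, Esrp1 and Srrm4) had 0 TPM in both. Those 5 are known as regulators of neurons or epithelia.

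The identity on the label was checked with marker genes. The 11 megakaryocyte markers summed to 11.2 TPM in replicate 1 and 6.80 in replicate 2. Only 2 of the 11 reached 1 TPM in both libraries, Tubb1 and Gp6 were at 0 in both, and Itga2b was the highest at 2.63 and 2.18. The 9 granulocyte markers found had a median of 1584 TPM, the 8 monocyte markers 39.1 and the 12 erythroid markers 10.8, with Car1 highest of the last at 512 and 242 TPM. The markers thus did not bear out the label, and granulocyte markers far exceeded megakaryocyte markers. In such bulk RNA, fewer cells of a type and less RNA per cell cannot be told apart. The regulators' values are those of the whole RNA and cannot be assigned to megakaryocyte progenitors.

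Between the libraries, no regulator passed the call for a difference, while marker genes of other cell types did: 4 granulocyte markers were higher in replicate 2, and of the erythroid markers 5 were higher in replicate 2 and 4 in replicate 1. Their part in the values of the regulators was not tested. Expected counts per library were 82746658 and 75652762, of which the members took 694972 and 629858, and the 39 members tested had between 767 and 50886 reads each. A gene was called where its adjusted p (exact binomial, Benjamini-Hochberg) was under 0.05 and its log2 ratio at least 0.5 in either direction. By that rule 0 of the 39 members were called, against 18.6% of all 14304 genes tested, and at a log2 ratio of 1 it was again 0, against 7.66%. Among protein-coding genes of 10 TPM or more the share called was 2.62%, so the count of 0 is read as near the background of genes of this level. At an unadjusted p under 0.05 and any ratio, 29 of the 39 passed. After adjustment it was 28 of the 39, against 8446 of all 14304 genes tested. This test compares 2 libraries and not conditions.

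The median log2 ratio of replicate 2 over replicate 1 was 0.01 for the members and 0.00 for all protein-coding genes. Of the 39, 36 lay within 0.25 of 0, with 23 above and 16 below. The widest ratios belonged to 2 PTB genes on opposite sides. Ptbp1 went from 15151 to 16864 reads (log2 ratio 0.30, adjusted p = 4.86e-77 by the binomial test), and Ptbp2 went from 2760 to 1963 (log2 ratio -0.34, adjusted p = 7.82e-15). PTB1 protein is known to repress an exon of Ptbp2. With 1 library on each side, no test of that relation was possible. Hnrnph1 at -0.27 was next, its reads going from 31691 to 23655, and Hnrnpu followed at -0.23.

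**Figure D2:**
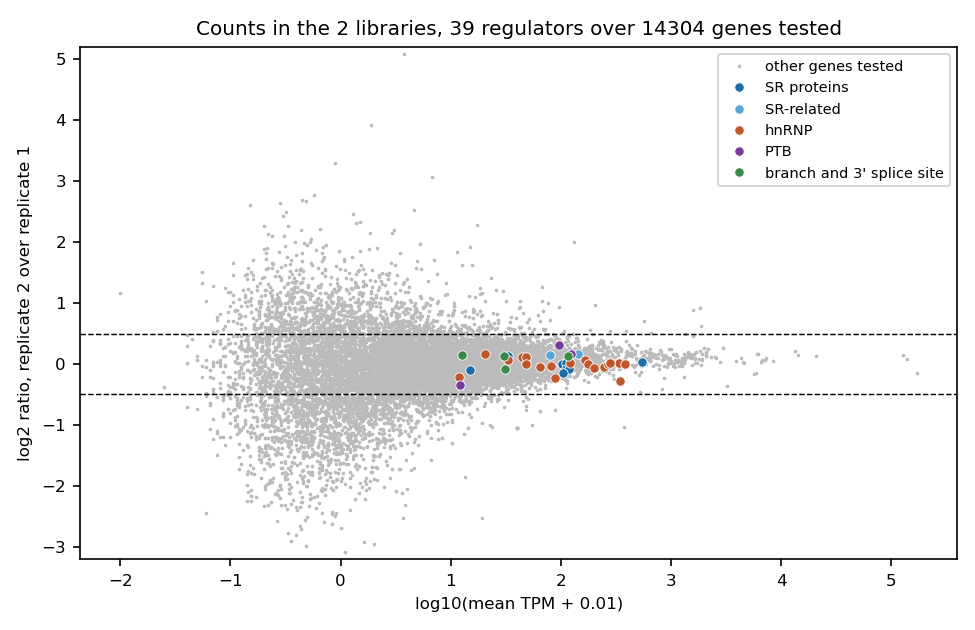
Log2 ratio of counts in replicate 2 over replicate 1 against log10(mean TPM + 0.01) for 14304 genes tested (grey) and the 39 regulators tested (coloured by role), with dashed lines at an absolute log2 ratio of 0.5. All 39 regulators lie between the lines, from -0.34 for Ptbp2 to 0.30 for Ptbp1.

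The level of a gene does not say how much of it can make protein, so the share of each gene's TPM in each annotated class of transcript was summed. The libraries are total RNA, and whether the reads of a class came from mature or unspliced RNA was not tested. The tables list 269 transcripts of the members: 136 protein-coding, 68 retained-intron, 34 processed transcripts, 30 NMD and 1 with no match. A class can only be counted where a model of it is annotated, and the members have a median of 6 models against 4 for protein-coding genes of 10 TPM or more. Among the 39 members of 10 TPM or more on average, 14 have coding models only, and 5 of these (Srsf7, Tra2a, Hnrnpa0, Hnrnpul2 and Ptbp2) have 1 model. Their share of 0 follows from the annotation. The known poison exons of Srsf7 and Tra2a could not be measured here.

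Over the 39 members, the median non-coding share was 13.7% of TPM, against 3.07% for 5416 protein-coding genes of 10 TPM or more. A share of 10% or more was reached by 22 of the 39 (56.4%), against 36.6% of those genes. Of the 25 members with a non-coding model, 22 (88.0%) reached it, against 56.9%. For retained-intron models, 14 of the 39 members (35.9%) reached 10% against 21.5%, and 14 of the 22 with such a model (63.6%) against 44.5%. For NMD models, 3 of the 39 (7.69%) reached it against 6.63%, which is near the background, and 3 of the 18 with such a model (16.7%) against 28.3%. The count for retained introns thus lay above the share of like genes on both bases, and the count for NMD did not.

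**Figure D3:**
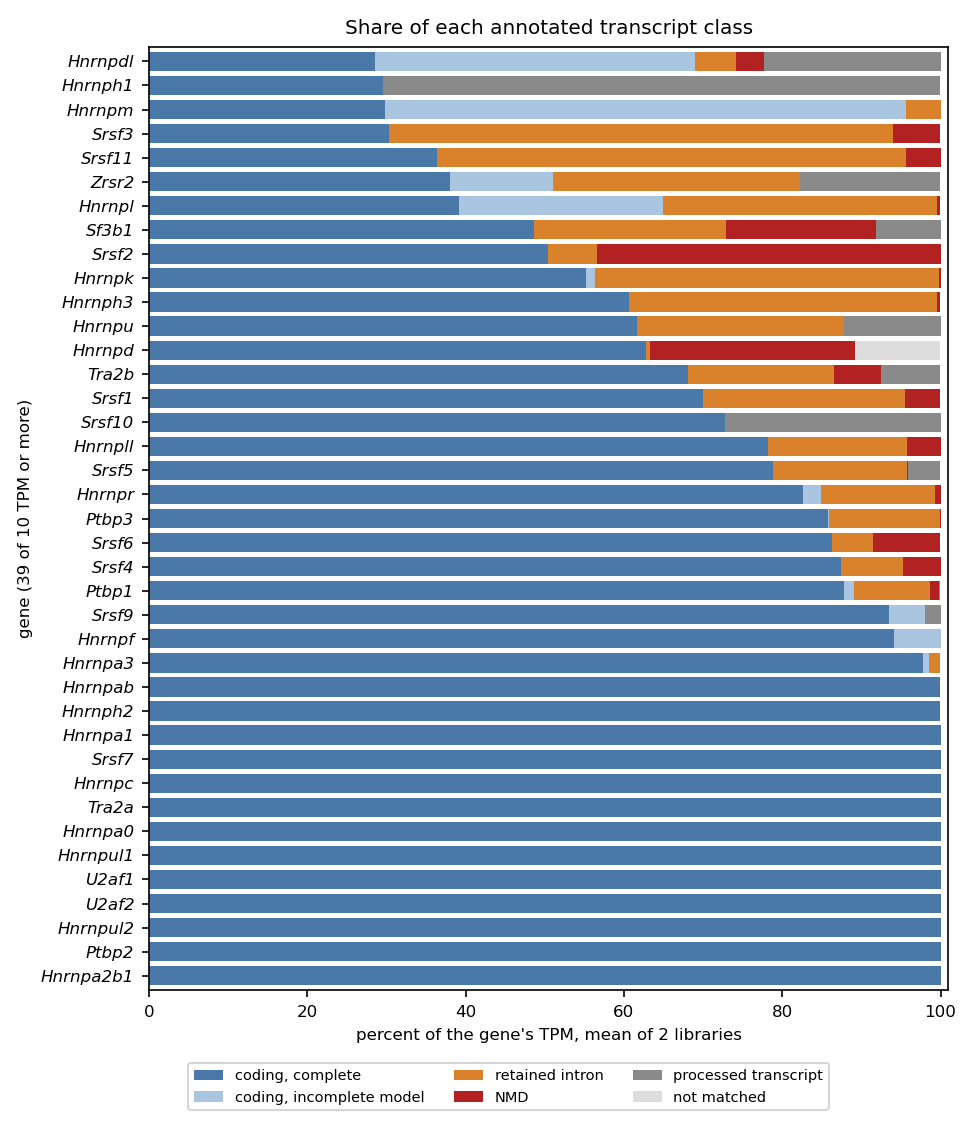
Percent of TPM in each annotated transcript class, as the mean of 2 libraries, for the 39 regulators of 10 TPM or more, ordered by the share of complete coding models. In 8 genes (20.5%) the complete coding models hold under 50% of TPM, against 17.0% of protein-coding genes of 10 TPM or more. Of the 39 regulators, 13 have 99% or more in complete coding models, as do 2045 of 5416 protein-coding genes of that level.

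Among the retained-intron shares, Srsf3 and Srsf11 were the highest. In Srsf3 they took 64.2% of TPM in replicate 1 and 63.0% in replicate 2, and in Srsf11 57.2% and 61.4%. Srsf11 encodes a divergent SR protein, and its largest such model keeps part of intron 3 and is 2952 nt long, so its share of reads (54.8%) was close to its share of TPM. In Srsf3 the share of reads was lower, at 41.8%. Its leading retained-intron model, with 59.9% of TPM, is listed at 910 nt but is longer in M21. How much of an intron the quantified model keeps is therefore not known.

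Hnrnpk, whose product binds C-rich sequence, had 44.5% and 42.4% of TPM in retained-intron models. Hnrnph3 had 44.3% and 33.6%, the libraries differing by over 10 percentage points. Hnrnpl, which binds CA repeats, had 37.0% and 32.3%. In reads these 3 genes had 16.3%, 19.0% and 27.5%. Below the 5 highest came Zrsr2 (31.2%), Hnrnpu (26.1%), Srsf1 (25.6%) and Sf3b1 (24.2%), and the mean share of reads was 10.8%, 3.39%, 4.36% and 18.7%.

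The gap between TPM and reads follows from the unit. TPM divides reads by effective length, so a short model needs few reads for a large share, and the median length was 808 nt for retained-intron models, 918 nt for NMD models and 2145 nt for coding models of the members. By share of reads, the members' median non-coding share was 5.23% against 1.17% for genes of like level, and 16 of the 39 members (41.0%) reached 10% against 26.2%. Over transcripts of 1000 nt or more, an alternative chosen after seeing the data, the medians were 0.0611% and 0. In 21 of the 25 members the share of reads was below that of TPM, and in Srsf5, Hnrnpr, Hnrnpll and Srsf4 it was above.

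**Figure D4:**
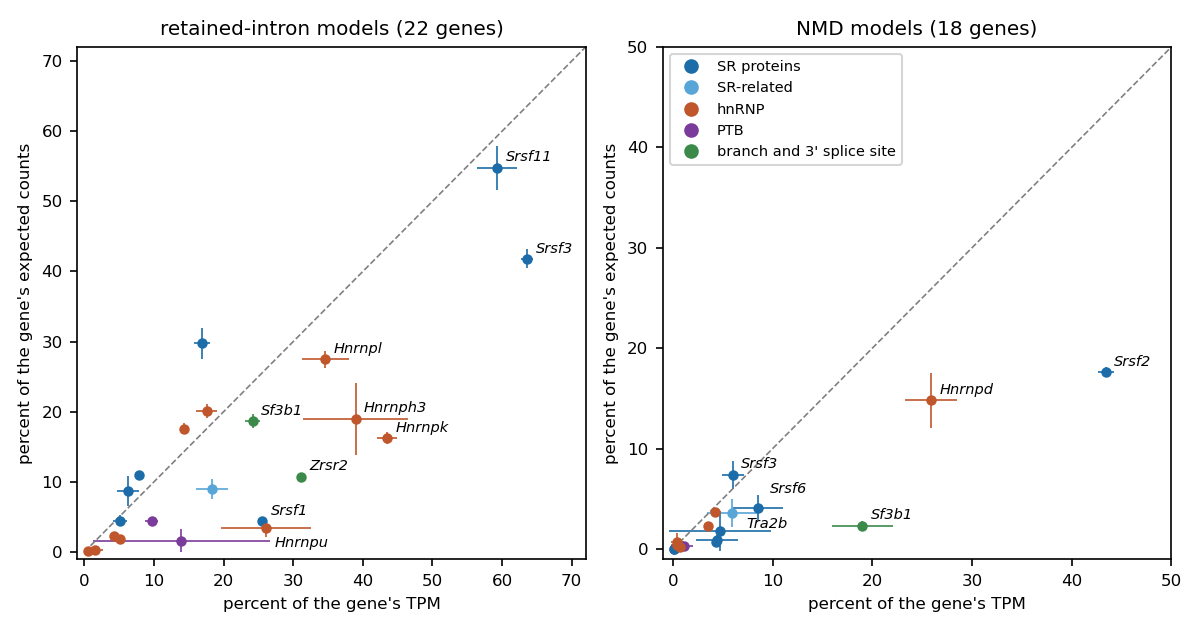
Percent of the gene's expected counts against percent of its TPM in retained-intron models (left, 22 genes) and NMD models (right, 18 genes), as means of 2 libraries with SD bars, coloured by role, with a dashed line of equality. Srsf2 lies far below the line at 43.4% of TPM and 17.6% of reads, and Srsf11 lies near it.

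Srsf2 had the highest NMD share, 42.9% and 44.0% of TPM. Almost all of it came from 1 model of 620 nt whose annotation is incomplete, and NMD models held 17.6% of the gene's reads. The complete coding transcript, which encodes 221 residues, held 49.8% and 50.9% of TPM and 73.7% of reads. Hnrnpd, also called AUF1, followed with 27.7% and 24.1% of TPM and 14.8% of reads. A further 11.5% and 10.1% of Hnrnpd TPM lay in the transcript with no M21 match, whose class is not known. Sf3b1 had 16.8% and 21.2% of TPM from its 600-nt model with the 56-nt exon shown above, but 2.32% of reads.

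Smaller NMD shares were found in other genes with known poison exons. Srsf6 had 10.3% and 6.74% of TPM in the transcript with the 268-nt exon, and Srsf3 had 5.26% and 6.80% in that with the 456-nt exon. For Tra2b the transcript with the 276-nt exon took 4.17% and 7.67%, and for Hnrnpll, the hnRNP L relative known from lymphocytes, that with the 83-nt exon took 4.49% and 3.94%. The Srsf6 share was higher in replicate 1 and the Tra2b share in replicate 2. The NMD shares of Hnrnpdl (3.54% and 3.50%) and Ptbp1 (0.51% and 1.73%) were lower.

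Other models reach over the same exons. For Tra2b, a retained-intron and a processed transcript cover at least 50% of the 276-nt exon, and with the NMD transcript they held 32.4% and 27.8% of TPM and 14.7% of reads. In Srsf6, 3 models over the 268-nt exon held 15.8% and 12.6% of TPM, and over the exon of Sf3b1 they held 27.7% and 29.9%. The 83-nt exon of Hnrnpll is in 1 model alone. For Srsf3 this sum is not given, since its leading retained-intron model is 910 nt in the tables and 2110 nt in M21.

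**Figure D5:**
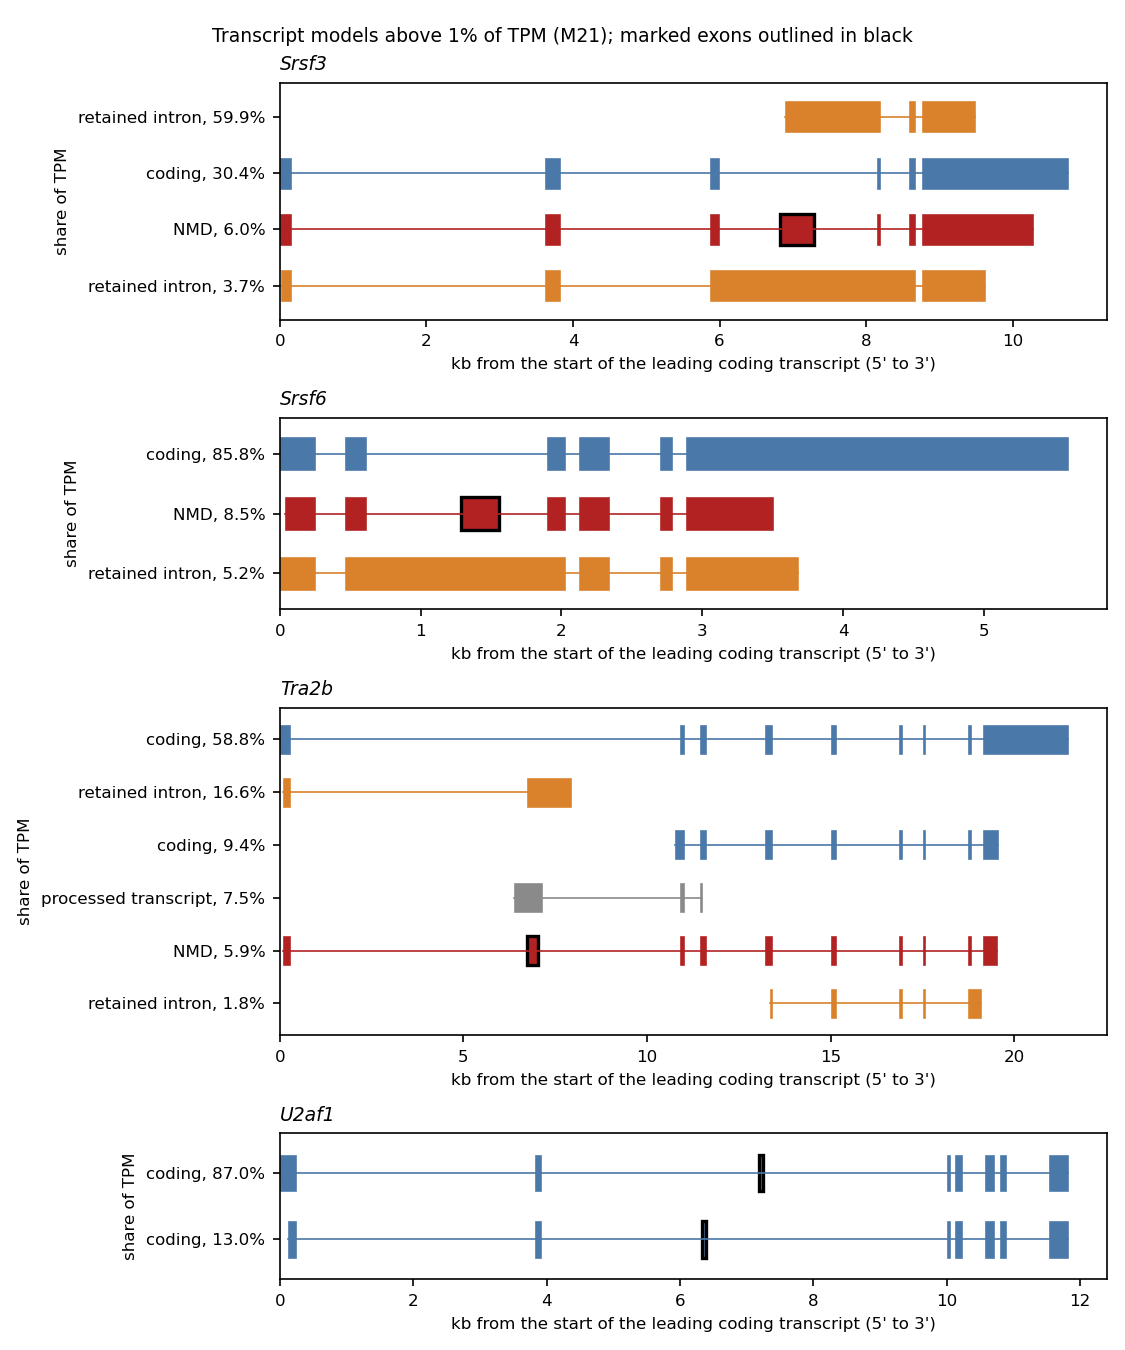
Transcript models above 1% of TPM of Srsf3, Srsf6, Tra2b and U2af1 (M21 structures), drawn 5′ to 3′ in kb from the start of the leading coding transcript, with exons as boxes and the mean share of TPM at the left. Black outlines mark the stop-carrying exons of the NMD transcripts and the pair of U2af1 exons, of which the downstream exon is in 87.0% of TPM. The leading Srsf3 retained-intron model and both U2af1 models are drawn at M21 lengths that differ from those quantified.

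Several genes were led by a transcript other than a complete coding one. By TPM these were Srsf3, Hnrnph1, Hnrnpm and Hnrnpdl, and by reads Hnrnph1 and Hnrnpdl. In Hnrnph1 a processed transcript of 816 nt held 48.5% and 50.1% of TPM and 25.1% of reads, and all its non-coding models together 70.4% of TPM. In Hnrnpm a coding model of 634 nt with an incomplete annotation held 66.3% and 64.5% of TPM and 31.5% of reads. Hnrnpdl, the AUF1-like member of the D family, had 40.7% and 40.2% of TPM in a coding model with an incomplete annotation that keeps intron 7 of the leading complete transcript. Of the Zrsr2 transcripts, the one encoding 541 residues held 9.76% and 11.3% of TPM.

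A few large shares rested on 1 library. The retained-intron share of Ptbp3 was 5.0% in replicate 1 and 22.9% in replicate 2, most of it from a model of 669 nt, and its share of reads was 1.64% on average. In Zrsr2, a processed transcript of 504 nt held 3.99% and 31.5% of TPM. The median difference of the libraries in the non-coding share was 3.36 percentage points over the 25 members, and 8 of them differed by over 5.

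Alternative coding exons were also resolved in these tables, and the genes were chosen after their values were seen. U2af1 has 2 mutually exclusive exons of 67 nt that alter part of its RNA recognition motif, and they are shown because only the letters tell the products apart. Capitals mark the 23 positions at which the exons differ. The gene is on the minus strand, so the upstream exon in the transcript lies at chr17:31652502-31652568 and the downstream exon at chr17:31651646-31651712.
U2af1 downstream exon: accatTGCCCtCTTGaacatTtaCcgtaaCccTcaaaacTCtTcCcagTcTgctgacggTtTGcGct
U2af1 upstream exon: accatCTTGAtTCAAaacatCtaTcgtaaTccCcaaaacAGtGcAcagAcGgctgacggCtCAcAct

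The transcript with the downstream exon held 85.1% and 88.9% of U2af1 TPM, and that with the upstream exon 14.9% and 11.1%. Both transcripts are 907 nt in the tables and encode 239 residues, so length does not separate their shares. Their M21 models have other lengths, so the structures may differ from those quantified. Ptbp1 has a 78-nt exon of 26 codons (chr10:79860117-79860194, plus strand) in the linker between RNA-binding domains, where its inclusion separates a longer from a shorter protein. Transcripts with it held 26.0% and 27.1% of TPM, and the transcript without it that encodes 529 residues held 61.6% and 63.3%.
Ptbp1 exon: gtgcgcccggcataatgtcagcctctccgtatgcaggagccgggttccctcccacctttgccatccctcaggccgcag

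In Hnrnpab and Hnrnpd, exons included in part of the transcripts lengthen the protein. The Hnrnpab exon of 141 nt, 47 codons at chr11:51601750-51601890 on the minus strand, was in transcripts with 37.1% and 37.7% of TPM. The Hnrnpd exon of 147 nt, 49 codons at chr5:99963731-99963877 on the minus strand, was in transcripts with 60.8% and 69.2%. These include NMD models, the largest with 12.1% and 15.9%, but not the transcript with no M21 match, whose exons are not known. The leading coding transcript with the exon held 44.4% and 49.6%. The other alternative exon of Hnrnpd, of 57 nt near the N terminus, was in 15.9% and 15.8%. In Hnrnpa2b1, an exon of 36 nt (12 codons) was in a transcript with 70.8% and 67.5%, but that transcript is 4086 nt in the tables and 1728 nt in M21, so its structure may differ from that quantified. The larger exons of Hnrnpab and Hnrnpd are shown as the stretches that separate the longer from the shorter proteins.
Hnrnpab exon: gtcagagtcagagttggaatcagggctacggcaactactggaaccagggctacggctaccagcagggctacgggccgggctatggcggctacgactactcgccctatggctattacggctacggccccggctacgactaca
Hnrnpd exon: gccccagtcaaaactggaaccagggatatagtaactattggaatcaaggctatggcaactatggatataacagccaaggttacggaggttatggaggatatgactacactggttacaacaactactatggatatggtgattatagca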

How the data were processed

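Total RNA-seq of 2 CFU-Meg libraries (replicates 1 and 2) was analysed. Per the files deposited with each sample, reads were mapped to mm10 and quantified against GENCODE M4; the aligner and the quantifier are not given in the sources read. The deposited expected counts are estimated, so reads shared by paralogs or transcripts are divided: 22 members have fractional counts. The authors' TPM values are per effective length and scaled to 1000000 over all rows. The deposited percent values (IsoPct) give each transcript's part of its gene's TPM. The deposited score columns bound the authors' credibility interval and were not used as results.

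Symbols, biotypes and structures came from GENCODE M21 (GRCm38), which matched 98.0% of Ensembl genes. Of the 269 member transcripts, 244 have the same length in M21 and 24 another, so a structure may differ from that quantified. NMD, retained-intron and non-coding shares were summed per library and averaged. An incomplete model is one tagged with an unfound end.

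Counts, rounded to whole numbers, were tested per gene (binomial, exact, two-sided) against the library ratio from TMM (edgeR 4.0.16, R 4.3.3) over genes passing filterByExpr, with Benjamini-Hochberg adjustment and a prior count of 2 in log2 ratios. Counting error alone gave log2 ratios a median 95% exact binomial interval of ±0.03, and PCR copies are not independent molecules. The script was tested on simulated data. Members, gene lists and tests were chosen with earlier results of these data known. Named genes followed a rule: extremes of each role, members under 1 TPM, the 5 highest NMD and retained-intron shares, and known poison-exon genes. Hnrnph1, Hnrnpm, Hnrnpu, U2af1, Hnrnpab and other examples outside it were chosen after their values were seen. DESeq2 1.42.0 size factors were an alternative.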

Additional observations from a re-analysis of the deposited data

How the results depend on the processing

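The median of 103 TPM stayed within the spread of the libraries with the posterior mean TPM, ranged from 102 to 107 when each library was left out in turn, and became 209 when TPM was rescaled over protein-coding rows (by 2.05 and 2.01 in the libraries). The count of members at 10 TPM or more in both libraries ran from 34 (at a minimum of 20 TPM) to 39. The count of members called between the libraries remained 0 with DESeq2 size factors, with an absolute log2 ratio of 1 and with counts divided by 4, and was 1 without the filter on low counts, where Srsf12 (8 reads against 0) entered the test. The median log2 ratio of 0.01 was -0.035 as a ratio of TPM + 1. Among members with such a transcript annotated, the median share was 4.27% for NMD, 17.2% for retained introns and 30.0% for all non-coding models. For protein-coding genes of 10 TPM or more with such a transcript, these medians were 2.77%, 8.22% and 13.5%. By reads, the NMD median was 1.37% for these members against 1.70%. With shares of expected counts, the retained-intron median of 4.34% became 1.64% and the non-coding median of 13.7% became 5.23%. With transcripts of 1000 nt or more, an alternative chosen after seeing the data, they became 0 and 0.0611%, against 0 for protein-coding genes of like level in both. Under that setting Srsf2 had 0.536% in NMD models. Of the 5 highest retained-intron shares, only that of Srsf11 was kept, at 60.6%. Those of Hnrnpl, Srsf3, Hnrnpk and Hnrnph3 fell to 17.1%, 9.29%, 2.90% and 0. Leaving out each library in turn gave 4.21% to 4.46% for retained introns, 12.6% to 14.4% for non-coding models and 0 for NMD. No paired analysis was possible because there is 1 group. For gene levels, depth limits Srsf12 alone, the one member under 767 reads. Transcript shares can rest on fewer reads. A retained-intron model of Hnrnph3 had 130 and 5.86 reads, for 28.5% and 2.12% of TPM.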
